A study of Felis catus with 25 samples.

Results

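PEG10 and TEX14 were 2 of the 13949 gene symbols counted in cultured cat corneal fibroblasts, the cells that make the collagen stroma of the cornea. Both were picked by symbol because they were very low in 4 of the 5 groups of the study and high in the other, so their levels and fold changes are given as a description, with no test. TrogGW cells had 2 days of TGFb1 at 1 ng/ml, then 3 days without it in 7.5 uM troglitazone and 10 uM GW9662, and were harvested on day 5. UK cells had the same 2 days of TGFb1, then 3 days in 30 uM UK-5099. Trog cells had the same 2 days of TGFb1, then 3 days in 7.5 uM troglitazone alone. TGFb cells were harvested on day 2 after 2 days of TGFb1, which the study used to turn fibroblasts into myofibroblasts, and FB cells were harvested untreated on day 0 after quiescence. Each group had 5 libraries, 25 in all. Troglitazone activates the nuclear receptor PPARG, GW9662 blocks that receptor, and both troglitazone and UK-5099 inhibit entry of pyruvate into mitochondria. GW9662 without troglitazone, and day 5 cells with neither drug, were not analysed here, so an effect of GW9662 alone cannot be told apart from one of the combination. Between day 5 groups and TGFb or FB cells, the drugs cannot be told apart from time or from TGFb1 and its withdrawal.

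PEG10 (paternally expressed gene 10) descends from the gag and pol genes of a Ty3/Gypsy retrotransposon. In human and mouse it is imprinted and read from the paternal allele, it is needed for the mouse placenta, and its gag-like protein binds RNA and can form virus-like particles. TEX14 (testis expressed 14) encodes a protein with an inactive kinase domain that in mouse germ cells holds open the intercellular bridges between sister cells. It binds CEP55 and so keeps out ALIX (gene PDCD6IP) and TSG101, which would otherwise complete the last cut of cell division.

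PEG10 was high in TrogGW cells only and near the detection limit elsewhere. It had 113, 191, 238, 190.5 and 170.0 CPM (counts per M counted reads, after TMM scaling) in TrogGW replicates 1 to 5, from 2945 to 5974 reads a library. In UK cells it had 0.657, 1.18, 1.54, 0.948 and 0 CPM. Trog cells gave 0.558, 0.423, 0.365, 0.336 and 0.461 CPM, from 9 to 13 reads. TGFb cells gave 0.425, 0.548, 0.903, 0.299 and 0.435 CPM, and FB cells 1.25, 1.61, 1.10, 1.37 and 1.76 CPM. Every TrogGW library lay above all 20 others, and the lowest of them was 64.1 times the highest of the others, an FB library. The 0 in UK replicate 5 allows up to 0.274 CPM, the value of 3 reads in that library, counting error only.

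TEX14 showed the same split. It had 1152, 2343, 2734, 2952 and 1796 CPM in TrogGW replicates 1 to 5, from 30072 to 85026 reads a library. UK cells gave 5.42, 6.81, 6.79, 6.14 and 4.39 CPM. In Trog cells it had 15.5, 9.54, 16.2, 12.2 and 13.0 CPM. TGFb cells had 9.16, 7.30, 7.73, 7.84 and 7.15 CPM, against 4.48, 6.50, 5.23, 5.60 and 4.51 CPM in FB cells. The lowest TrogGW library was 71.3 times the highest other library, a Trog library. Unlike PEG10, TEX14 was counted in every library, with at least 75 reads in FB and at least 105 in TGFb cells.

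**Figure D1:**
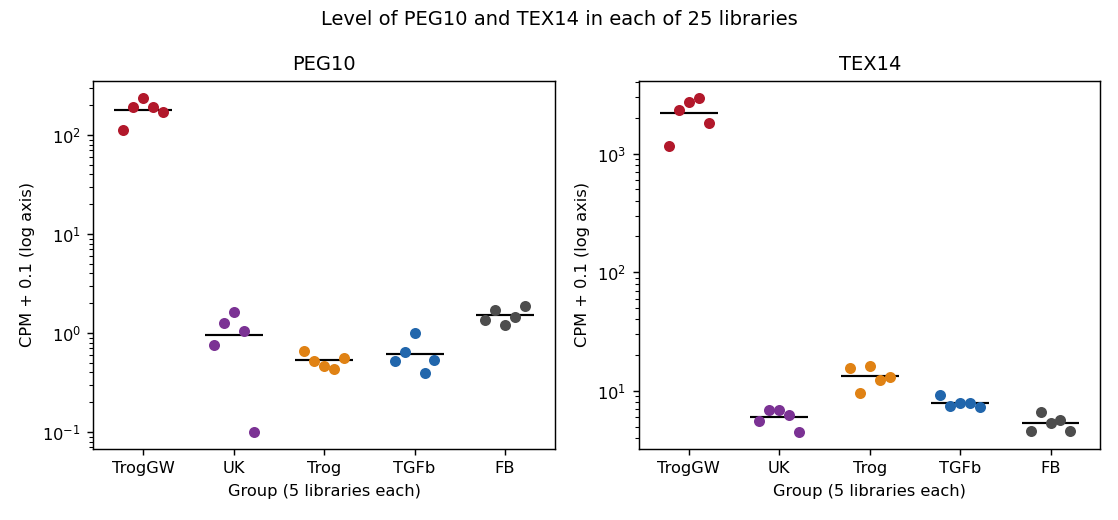
Level of PEG10 (left) and TEX14 (right) in each of 25 libraries, as CPM with an offset of 0.1 on a log axis; each point is 1 library and the groups run TrogGW, UK, Trog, TGFb and FB. The TrogGW libraries lie at 113 to 238 CPM for PEG10 and 1152 to 2952 CPM for TEX14, while no other library passes 1.76 CPM for PEG10 or 16.2 CPM for TEX14.

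The gap was ranked among other genes as a description, since it is what the choice of both genes used. Of 7402 genes that averaged 10 CPM or more in TrogGW, 795 had every TrogGW library above every other library, 17 of them by at least 10 times and 3 by at least 50 times. Those 3 were ARC at 106 times, TEX14 and PEG10. The next, NPTX1, stood at 39.7 times. Ranked by read count without correction for gene length, TEX14 lay between the 12th and 52nd gene of each TrogGW library and took 0.297% ± 0.104 of its reads (SD, n = 5). PEG10 lay between the 507th and 1487th gene and took 0.0243% ± 0.00649.

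In TrogGW against Trog cells, which differ by GW9662, PEG10 averaged 181 ± 45.4 CPM in TrogGW and 0.429 ± 0.0874 CPM in Trog (SD, n = 5 each). The means differed 421-fold, with a log2 fold change of 8.71 ± 0.37 (standard error, edgeR). TEX14 averaged 2195 ± 730.2 CPM in TrogGW and 13.3 ± 2.67 CPM in Trog, a 165-fold difference and a log2 fold change of 7.37 ± 0.248. By size, PEG10 was the 3rd and TEX14 the 8th log2 fold change of the 10699 genes that passed the filter on low counts. Groups did not overlap for 54.2% of those genes, with TrogGW higher for 27.3%. Since both genes were chosen for this pattern, nothing is read from their place in it.

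Against TGFb cells, the state before the drugs, PEG10 was 346-fold higher in TrogGW (log2 fold change 8.39 ± 0.371) and TEX14 280-fold higher (8.13 ± 0.257). Against FB cells, PEG10 was 127-fold higher in TrogGW (6.99 ± 0.334) and TEX14 417-fold (8.70 ± 0.264). TrogGW and TGFb libraries did not overlap for 76.1% of genes, with TrogGW higher for 40.9%. TrogGW and FB libraries did not overlap for 75.7%, with TrogGW higher for 38.2%. The TrogGW libraries enter all 3 of these differences, so the values share their spread.

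Among the 4 other groups the genes were low and took opposite orders. PEG10 averaged 0.865 ± 0.582 CPM in UK, 0.429 ± 0.0874 in Trog, 0.522 ± 0.23 in TGFb and 1.42 ± 0.267 in FB, so that the order was FB, UK, TGFb, Trog. TEX14 averaged 5.91 ± 1.02 CPM in UK, 13.3 ± 2.67 in Trog, 7.84 ± 0.792 in TGFb and 5.26 ± 0.84 in FB, the order Trog, TGFb, UK, FB. Scaled to library totals alone, without TMM, Trog stood above TGFb for PEG10 (0.512 and 0.387 CPM), while the order for TEX14 was kept. Over all 25 libraries the log2 CPM of both genes correlated at Pearson r = 0.941, a value set largely by TrogGW against the rest. Over the 20 libraries without TrogGW, r was -0.268, and over 19 of them without UK replicate 5 it was -0.709.

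With TGFb1, PEG10 was lower in TGFb than in FB cells and TEX14 slightly higher. PEG10 had 0.299 to 0.903 CPM in TGFb and 1.10 to 1.76 CPM in FB, a log2 fold change of -1.40 ± 0.387. TEX14 had 7.15 to 9.16 CPM in TGFb and 4.48 to 6.50 CPM in FB, or 0.57 ± 0.204. Neither gene's groups overlapped, which held for 53.2% of all tested genes, 25.8% higher and 27.4% lower in TGFb. On library totals alone the TEX14 difference was 0.19.

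Between Trog and TGFb cells the PEG10 libraries overlapped, with a log2 fold change of -0.32 ± 0.441. The TEX14 libraries did not, with 9.54 CPM or more in Trog and 9.16 CPM or less in TGFb (0.76 ± 0.198), as for 70.8% of all tested genes, with Trog higher for 36.5%. Against FB cells, PEG10 was lower in Trog (-1.72 ± 0.372) and TEX14 higher (1.33 ± 0.201), without overlap for either, as for 71.5% of genes (35.6% higher and 35.9% lower in Trog). Troglitazone with GW9662 and troglitazone alone were both above TGFb and FB for TEX14, at very unequal levels. For PEG10, the lowest TrogGW library had 113 CPM and no Trog library passed 0.558 CPM.

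Both genes were low with UK-5099. Against TGFb cells, PEG10 libraries overlapped (log2 fold change 0.79 ± 0.409) and TEX14 was lower, with 4.39 to 6.81 CPM in UK and 7.15 to 9.16 CPM in TGFb (-0.40 ± 0.204), without overlap, as for 34.7% of genes (18.7% lower in UK). Against Trog cells, TEX14 was lower in UK (log2 fold change -1.16 ± 0.2), without overlap, as for 44% of genes (23.1% lower in UK). PEG10 was 1.10 ± 0.394 above Trog, with UK replicate 5 at 0 and the other 4 libraries above every Trog library. Against FB cells the libraries overlapped for both genes, with log2 fold changes of -0.62 ± 0.347 for PEG10 and 0.17 ± 0.205 for TEX14, while 37.8% of all tested genes did not overlap.

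The libraries held 14.8 to 25.2 M counted reads. UK replicate 5, with 14.8 M, stood apart, correlating with the other UK libraries at 0.852 to 0.868 in log2 CPM, while all other pairs within a group reached at least 0.988. Without it, PEG10 averaged 1.08 ± 0.374 CPM and TEX14 6.29 ± 0.66 CPM in UK cells (SD, n = 4). PEG10's log2 fold change was then 1.01 against TGFb, 1.34 against Trog and -0.39 against FB cells, and TEX14's was -0.31, -1.07 and 0.25 in the same comparisons. Its part in the shared spread also bears on tests between other groups, so counts without it are given beside those below.

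Markers of other cell types were checked beside these levels. The fibroblast and keratocyte markers, 11 of 13 in the files, summed to 6931 to 17912 CPM in TrogGW, 103721 to 185608 in UK, 24856 to 30284 in Trog, 157924 to 193329 in TGFb and 87562 to 102738 CPM in FB. COL1A1, COL1A2 and FN1 made up most of that sum. Each of them was lowest in TrogGW, as were COL3A1, LUM, DCN and S100A4. LUM had 64.8 CPM in TrogGW and 243 CPM in Trog, and DCN 218 CPM in TrogGW and 579 CPM in Trog. PDGFRA, a receptor that marks fibroblasts, ran otherwise, with 198 CPM in TrogGW, 245 in UK, 88.3 in Trog, 146 in TGFb and 131 CPM in FB. PDGFRB had 176 CPM in TrogGW, 179 in UK, 387 in Trog, 107 in TGFb and 176 CPM in FB. THY1 was under 0.5 CPM in every group. ALDH3A1 had 1.60 CPM in TrogGW, 11.7 in UK, 0.496 in Trog, 0.295 in TGFb and 0.741 CPM in FB. Myofibroblast markers, 5 of 6 in the files, were also lowest in TrogGW, at a sum of 288 to 430 CPM. Their sum was 7427 to 13322 CPM in UK, 745 to 1109 in Trog, 17930.5 to 19085 in TGFb and 5839 to 6331 CPM in FB. MYH11 of that list did not follow, with 157 CPM in TrogGW and 108 CPM in FB. In bulk RNA, fewer cells of a type and less RNA per cell cannot be told apart. KRT3 and KRT12 of the corneal epithelium and the leukocyte gene PTPRC were at 0 in all 25 libraries. Other members of those lists were not. PAX6 was highest in TrogGW, with 2.08 CPM, against 0.467 CPM in Trog, and EPCAM had 2.44 CPM in TrogGW and 9.24 CPM in FB. CD68 had 20.1 CPM in TrogGW, 25.8 in Trog and 10.8 CPM in FB. CSF1R had 4.44 CPM in TrogGW, 6.33 in UK, 5.81 in Trog, 0.152 in TGFb and 0.315 CPM in FB. Vascular endothelium markers, 5 of 5 in the files, summed to 39.0 to 54.6 CPM in TrogGW, 2.93 to 14.4 in UK, 18.9 to 23.8 in Trog, 6.94 to 9.58 in TGFb and 9.11 to 11.2 CPM in FB. That sum was highest in TrogGW, as both genes were, and was mostly KDR, with 47.0 CPM in TrogGW, 11.0 in UK, 20.6 in Trog, 7.23 in TGFb and 9.49 CPM in FB. PECAM1 was also highest in TrogGW, with 1.96 CPM, against 0.955 in Trog and 0.391 CPM in TGFb. The other markers of that list were not high in TrogGW. CDH5 and CLDN5 had 4 and 2 reads over all TrogGW libraries. TEK had 0.0959 CPM in TrogGW, 0.422 in Trog and 1.07 CPM in TGFb. Corneal endothelium markers, 6 of 6 in the files, summed to 116 to 140 CPM in TrogGW and 267 to 304 CPM in TGFb, mostly TFAP2B. CA12 (9.72 CPM in TrogGW, 4.48 in Trog) and CA2 (1.28 and 0.734 CPM) were highest in TrogGW. TFAP2B, SLC4A11 and COL8A2 were not, and ZP4 was at 0. Melanocyte and Schwann markers, 7 of 8 in the files, summed to 10.3 to 12.7 CPM in TrogGW and 14.5 to 19.2 CPM in Trog, mostly MITF. The part of these markers in the result was not tested.

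Within TrogGW the replicates were uneven, with a coefficient of variation of 25.1% for PEG10 and 33.3% for TEX14. Replicate 1 was the lowest for both genes and replicate 5 the next. The fibroblast marker sum ran the other way, at 17912, 8976, 7555, 6931 and 11036 CPM in replicates 1 to 5, so that the TEX14 order was its exact reverse. COL1A2, a collagen I chain from PEG10's chromosome region that was chosen after its values were seen, had 825, 196, 132, 142 and 318 CPM in the same libraries. Whether this bears on the levels was not tested. Without TrogGW replicate 1, the log2 fold change over Trog was 8.83 for PEG10 and 7.53 for TEX14.

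The genes beside PEG10 named here, SGCE, CASD1, COL1A2 and PPP1R9A, had log2 fold changes of -2.03 to 0.34 in TrogGW against Trog. The RefSeq annotation of the cat (assembly F.catus_Fca126_mat1.0) places PEG10 on chromosome A2 with 2 transcripts and no other gene inside its span. Of the 3 nearest genes on each side of PEG10 and of TEX14, the files held SGCE, CASD1, PPP1R9A, RAD51C and PPM1E, and PPM1E did not pass the filter on low counts. SGCE encodes epsilon-sarcoglycan and is imprinted in human and mouse, where it starts head to head with PEG10. It had 19.2, 29.8, 25.4, 25.9 and 25.4 CPM in TrogGW, a mean of 25.1 ± 3.81, against 19.9 ± 1.71 CPM in Trog. The log2 fold change of 0.34 ± 0.146 did not pass (adjusted p = 0.0646, edgeR with Benjamini-Hochberg adjustment), and it passed without UK replicate 5 (0.34 ± 0.0831, adjusted p = 0.000671) and without TrogGW replicate 1, its lowest TrogGW library (0.42, adjusted p = 0.0235). It also passed with upper quartile scaling (0.41, adjusted p = 0.0183), on library totals alone (0.51, adjusted p = 0.00163) and with only TrogGW and Trog fitted (0.34, adjusted p = 0.00595). Its highest means were in UK (74.2 ± 24.5 CPM) and TGFb (56.2 ± 4.25 CPM), and SGCE fell in TrogGW against TGFb (-1.16 ± 0.147, adjusted p = 2.27e-07), where 69.4% of all tested genes passed, 38.1% higher and 31.3% lower. On library totals alone that difference was -0.30.

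CASD1, a sialic acid acetyltransferase on the far side of SGCE, had 38.8 ± 3.56 CPM in TrogGW and 33.3 ± 1.63 CPM in Trog (0.22 ± 0.139, adjusted p = 0.214, 0.00454 without UK replicate 5 and 0.0066 with only TrogGW and Trog fitted). Against TGFb cells (26.2 ± 2.92 CPM), CASD1 was higher in TrogGW (0.57 ± 0.14, adjusted p = 0.000998). COL1A2, beyond CASD1 and named above, fell to 323 ± 291 CPM in TrogGW, against 1320 ± 334 CPM in Trog (-2.03 ± 0.347, adjusted p = 4.05e-05) and 37158 ± 1767 CPM in TGFb (-6.85 ± 0.431, adjusted p = 1.23e-12). PPP1R9A, which encodes the actin-binding protein neurabin, was near its floor and fell to 0.365 ± 0.135 CPM in TrogGW, against 0.771 ± 0.184 CPM in Trog (-1.06 ± 0.303, adjusted p = 0.00626). Among the wider list of 9 genes of this imprinted region, 6 were tested, of which 1 was higher and 2 lower in TrogGW than in Trog. That is 50% called, against 43.2% of all tested genes, 22.8% higher and 20.4% lower. The list's median log2 fold change was 0.28, against 0.01 over all tested genes. TFPI2, a protease inhibitor, had 1040.5 ± 319 CPM in TrogGW and 567 ± 51.4 CPM in Trog (0.88 ± 0.219, adjusted p = 0.00215). PON2, an antioxidant lactonase, had 28.8 ± 2.8 CPM in TrogGW and 50.3 ± 2.36 CPM in Trog (-0.81 ± 0.115, adjusted p = 3.72e-06). With UK replicate 5 left out, 3 were higher and 2 lower, and without TrogGW replicate 1, 2 were higher. In the fit without UK replicate 5, 71.6% of all genes passed.

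TEX14 lies on chromosome E1 in the RefSeq annotation, with 11 transcripts and 10 other genes, none protein-coding, inside its span. The libraries were made with a stranded kit, but the strand setting of the counting was not given in the sources used here, so reads of such overlapping genes cannot be told apart from those of TEX14. RAD51C, a DNA repair gene that starts head to head with TEX14 in human, had 12.4, 12.8, 11.9, 14.5 and 14.4 CPM in TrogGW, all below the Trog libraries (16.3 to 19.5 CPM). It fell in TrogGW against Trog (-0.46 ± 0.126, adjusted p = 0.00437) and against TGFb (13.2 ± 1.2 CPM in TrogGW, 32.7 ± 1.2 CPM in TGFb, -1.31 ± 0.128, adjusted p = 3.07e-09). On library totals alone the difference from TGFb was -0.46.

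Over the neighbourhood list of 14 genes, 8 were tested, with 3 higher and 1 lower in TrogGW than in Trog (50% called, against 43.2% of all tested genes), and a median log2 fold change of 0.05. Leaving out UK replicate 5 gave 3 higher and 2 lower, against 71.6% of all genes called. The ubiquitin ligase TRIM37 had 102 ± 4.4 CPM in TrogGW and 73.7 ± 5.79 CPM in Trog (0.47 ± 0.0725, adjusted p = 1.13e-05). The splicing factor SRSF1 had 55.2 ± 3.23 CPM in TrogGW and 33.4 ± 2.53 CPM in Trog (0.72 ± 0.151, adjusted p = 0.000393), and the dynein light chain DYNLL2 84.6 ± 1.42 CPM in TrogGW and 68.9 ± 3.2 CPM in Trog (0.30 ± 0.087, adjusted p = 0.00788). MTMR4, a lipid phosphatase chosen after its values were seen, did not pass (0.10 ± 0.231, adjusted p = 0.763). Against TGFb cells, where 69.4% of all tested genes passed, SRSF1 was lower in TrogGW (-0.40 ± 0.15, adjusted p = 0.0221). It had 72.8 ± 2.94 CPM in TGFb and 131 ± 2.46 CPM in FB. TRIM37 (0.65 ± 0.0728, adjusted p = 3.28e-08) and MTMR4 (1.19 ± 0.236, adjusted p = 9.76e-05) were higher in that comparison, and DYNLL2 did not pass (0.13 ± 0.0871, adjusted p = 0.179).

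**Figure D2:**
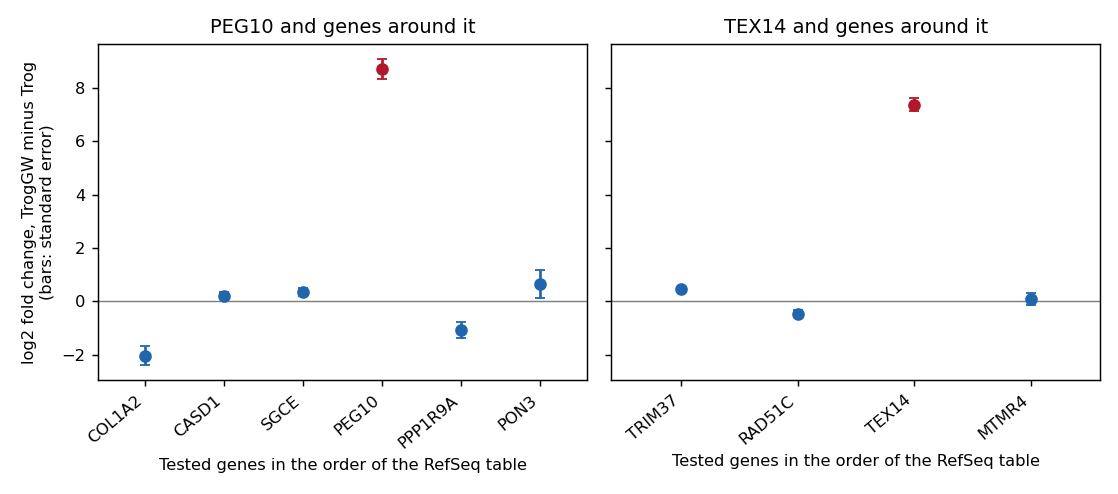
Log2 fold change of TrogGW minus Trog for the tested genes around PEG10 (left) and TEX14 (right) in the order of the RefSeq table, with bars of 1 standard error. PEG10 and TEX14 are the red dots and the other genes the blue dots. All dots are filled, whether or not the gene passed an adjusted p of 0.05. PEG10 at 8.71 and TEX14 at 7.37 stand far above neighbours such as SGCE at 0.34 and RAD51C at -0.46.

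Other imprinted genes were split. Imprinted genes are read mainly from 1 parental allele and many act in fetal growth. Of 35 listed, 23 were in the files and 19 were tested: 6 were higher and 3 lower in TrogGW than in Trog, with a median log2 fold change of 0.07. The share called, 47.4%, was near the 43.2% of all tested genes. Leaving out UK replicate 5 gave 7 higher and 8 lower, with 71.6% of all genes called. MEST, a paternally expressed hydrolase-like gene in human and mouse, had 7.74 to 11.5 CPM in TrogGW and 0.184 to 0.373 CPM in Trog (log2 fold change 5.19 ± 0.263, adjusted p = 3.01e-13). CDKN1C, a cell cycle inhibitor read from the maternal allele in those species, had 42.6 ± 15.2 CPM in TrogGW and 1.18 ± 0.291 CPM in Trog (5.16 ± 0.499, adjusted p = 1.24e-08). The growth factor IGF2 had 63.4 ± 17.6 CPM in TrogGW, 29.0 ± 6.51 in UK and 6.52 ± 1.05 CPM in Trog (3.28 ± 0.223 over Trog, adjusted p = 3.96e-11).

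Others of the list fell. MAGEL2, a paternally expressed cofactor of a ubiquitin ligase, had 0.672 ± 0.173 CPM in TrogGW and 3.79 ± 0.615 CPM in Trog (-2.48 ± 0.197, adjusted p = 4.68e-10). GRB10, an adaptor that dampens insulin receptor signalling, had 106 ± 4.22 CPM in TrogGW and 175 ± 7.03 CPM in Trog (-0.72 ± 0.0676, adjusted p = 7.8e-09).

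Genes that, like PEG10, derive from retrotransposon gag sequences were mostly out of reach. Of 24 listed, 7 were in the files and 5 tested, with 2 higher, none lower and a median log2 fold change of -0.06 (1 lower without UK replicate 5). The share called was 40%, near the 43.2% of all tested genes. ARC, a neuronal immediate early gene whose protein forms capsids that carry RNA, had 43.0 to 91.3 CPM in TrogGW and 0.115 to 0.406 CPM in Trog (7.80 ± 0.343, adjusted p = 4.01e-14). No library outside TrogGW passed 0.406 CPM of ARC, so ARC passed the filter on low counts only through TrogGW, where it is high. Its call and its p-value are therefore given as a description. ARC is the gene whose gap between TrogGW and all other libraries exceeded those of PEG10 and TEX14. PNMA1, a paraneoplastic antigen, had 20.2 ± 2.03 CPM in TrogGW and 12.9 ± 1.5 CPM in Trog (0.65 ± 0.0924, adjusted p = 3.93e-06), and 24.9 ± 1.26 CPM in TGFb.

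**Figure D3:**
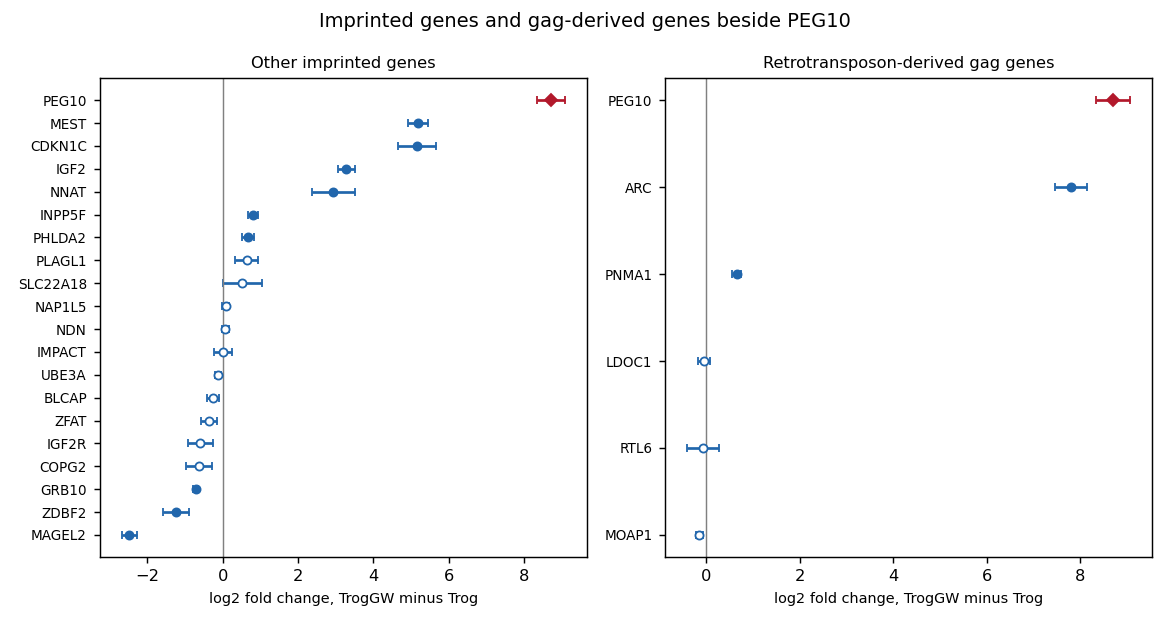
Log2 fold change of TrogGW minus Trog for the tested members of the list of other imprinted genes and of the list of gag-derived genes, with PEG10 as a red diamond; filled dots passed an adjusted p of 0.05 and open dots did not. MEST at 5.19, CDKN1C at 5.16 and ARC at 7.80 lie nearest to PEG10 at 8.71, and MAGEL2 at -2.48 lies lowest.

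Genes tied to PEG10 by earlier work were split. PEG10 protein has been reported to bind the TGF-beta superfamily receptor ACVRL1 in human cells, and E2F1 to act on the human gene's promoter. Of the 9 listed, 8 were tested, with 1 higher, 3 lower and a median log2 fold change of -0.42. The share called was 50%, against 43.2% of all tested genes. Without UK replicate 5, 4 were lower, with 71.6% of all genes called. ENG, a coreceptor for TGFb1, had 48.4 ± 4.49 CPM in TrogGW and 83.6 ± 6.01 CPM in Trog (-0.79 ± 0.084, adjusted p = 5.64e-08). TGFBR2, the type II receptor, had 352 ± 11.3 CPM in TrogGW and 497 ± 31 CPM in Trog (-0.50 ± 0.0612, adjusted p = 4.58e-07). ACVRL1 had 13.5 ± 1.2 CPM in TrogGW and 20.2 ± 1.4 CPM in Trog (-0.58 ± 0.0995, adjusted p = 4.36e-05). E2F1, a cell cycle transcription factor, had 5.90 ± 0.588 CPM in TrogGW and 3.36 ± 0.544 CPM in Trog (0.81 ± 0.1, adjusted p = 5.32e-07), and 20.3 ± 0.966 CPM in FB. ACVRL1 had 4.94 ± 0.678 CPM in TGFb and 9.27 ± 0.829 CPM in FB. Against TGFb cells, where 69.4% of all tested genes passed, ACVRL1 was higher in TrogGW (1.45 ± 0.106, adjusted p = 1.84e-11). ENG (-1.68 ± 0.0857), TGFBR2 (-1.33 ± 0.0621) and E2F1 (-0.40 ± 0.0981) were lower in that comparison.

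Midbody and bridge genes, the partners of TEX14 at the end of cell division, numbered 16, of which 13 were tested: 5 were higher and 1 lower in TrogGW than in Trog, with a median log2 fold change of 0.02. The share called, 46.2%, was near the 43.2% of all tested genes. Without UK replicate 5, 5 were higher and 4 lower, with 71.6% of all genes called. CEP55, to which TEX14 binds in mouse, had 3.53 ± 0.636 CPM in TrogGW and 1.69 ± 0.409 CPM in Trog (1.07 ± 0.189, adjusted p = 6.41e-05). FB cells had 8.73 ± 1.46 CPM of CEP55. PRC1, which bundles microtubules of the central spindle, had 12.8 ± 1.54 CPM in TrogGW and 5.42 ± 0.353 CPM in Trog (1.23 ± 0.127, adjusted p = 3.43e-08). CIT, the citron kinase of the midbody, had 5.05 ± 0.916 CPM in TrogGW and 2.12 ± 0.611 CPM in Trog (1.25 ± 0.196, adjusted p = 1.37e-05). Its levels were higher in TGFb (17.1 ± 1.25 CPM) and FB (24.9 ± 3.88 CPM). Against TGFb cells, where 69.4% of all tested genes passed, CIT was lower in TrogGW (-1.76 ± 0.185, adjusted p = 1.13e-08). CEP55 (2.33 ± 0.224, adjusted p = 2.34e-09) and PRC1 (0.93 ± 0.128, adjusted p = 7.73e-07) were higher in that comparison.

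PDCD6IP, which encodes ALIX, was the gene that fell, with 346 ± 11.6 CPM in TrogGW and 407 ± 17.9 CPM in Trog (-0.23 ± 0.0939, adjusted p = 0.0496). That call was lost in 21 of the 25 fits that each left out 1 library. KIF23, a motor of the midbody named after its values were seen, had 0.187 ± 0.0744 CPM in TrogGW, 0.141 ± 0.0649 CPM in Trog and 21.8 ± 3.3 CPM in FB (0.39 ± 0.393 between TrogGW and Trog, adjusted p = 0.504).

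Kinetochore genes were listed because TEX14 has been placed at the kinetochore of dividing cultured cells, with the kinase PLK1. All 9 were tested, and 6 were higher and none lower in TrogGW than in Trog, with a median log2 fold change of 0.88. The share called was 66.7%, against 43.2% of all tested genes, 22.8% higher and 20.4% lower. Leaving out UK replicate 5 also gave 6 higher and none lower, with 71.6% of all genes called. The checkpoint kinase TTK had 1.74 ± 0.443 CPM in TrogGW and 0.281 ± 0.145 CPM in Trog (2.62 ± 0.291, adjusted p = 1.1e-07). CENPE, a kinetochore motor, had 6.08 ± 1.22 CPM in TrogGW and 1.99 ± 0.536 CPM in Trog (1.61 ± 0.211, adjusted p = 1.2e-06), and NDC80, a microtubule anchor, 3.85 ± 0.77 CPM in TrogGW and 1.75 ± 0.296 CPM in Trog (1.14 ± 0.222, adjusted p = 0.000179). PLK1 itself, chosen after its values were seen, did not pass (0.15 ± 0.162, adjusted p = 0.488). FB cells had more of TTK, CENPE and NDC80 than TrogGW cells, at 12.5 to 16.7 CPM of TTK, 22.3 ± 5.69 CPM of CENPE and 12.2 ± 1.52 CPM of NDC80. Against TGFb cells, where 69.4% of all tested genes passed, TTK did not pass (0.25 ± 0.243, adjusted p = 0.358). CENPE (1.19 ± 0.212, adjusted p = 2.94e-05) and NDC80 (1.32 ± 0.235, adjusted p = 2.86e-05) were higher in TrogGW.

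Most germ cell genes were low in TrogGW. Of 51 listed, 40 were in the files, 11 of them at 0 in every library, 16 at 0 in all TrogGW libraries and 30 under a mean of 1 CPM in TrogGW. The 2 with a mean of at least 10 CPM, named after their values were seen, were PIWIL2, a piRNA-binding protein (43.5 CPM in TrogGW, 39.6 in Trog and 31.2 CPM in FB), and TDRD7, a germ granule protein (21.9 CPM in TrogGW, 24.2 in Trog and 15.4 CPM in FB). The filter on low counts passed 16, of which 5 were higher and none lower in TrogGW than in Trog, with a median log2 fold change of 0.36 (6 higher and 1 lower without UK replicate 5, with 71.6% of all genes called). The share called was 31.2%, against 43.2% of all tested genes, 22.8% higher. Leaving out replicate 1, 2 or 5 of TrogGW, or 2, 4 or 5 of Trog, gave 3 higher. A gene could pass that filter through the group where it is high. MEIOB and NANOS3 passed it only through TrogGW, so their calls and p-values are given as a description. MEIOB, a meiotic recombination factor, had 1.88 to 4.10 CPM in TrogGW and 0.322 to 0.821 CPM in Trog (2.59 ± 0.262, adjusted p = 7.7e-07), and 0 reads in TGFb and FB. DMC1, the meiotic recombinase, had 6.18 ± 1.39 CPM in TrogGW, 1.88 ± 0.0992 in Trog and 4.39 ± 0.968 in TGFb (1.71 ± 0.216 over Trog, adjusted p = 7.31e-07). NANOS3, a gene of primordial germ cells, had 1.18 ± 0.331 CPM in TrogGW and 0.273 ± 0.0953 CPM in Trog (2.10 ± 0.379, adjusted p = 7.88e-05).

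Defining germ cell markers were close to 0, apart from NANOS3. The 6 markers, of which 4 were in the files, summed to 0.651 to 1.44 CPM in TrogGW, 0.196 to 1.10 in UK, 0.187 to 0.369 in Trog, 0 to 0.182 in TGFb and 0 to 0.0523 CPM in FB. The median sum was highest in TrogGW, at 1.39 CPM, as both genes were. It was mostly NANOS3, which had 1.18 CPM in TrogGW, 0.471 in UK, 0.273 in Trog, 0.0775 in TGFb and 0.0105 CPM in FB. The RNA helicase DDX4, a general germ cell marker, had 5 reads over all TrogGW libraries and 2 over all Trog libraries. MAEL, a piRNA pathway gene, was at 0 in all 25.

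**Figure D4:**
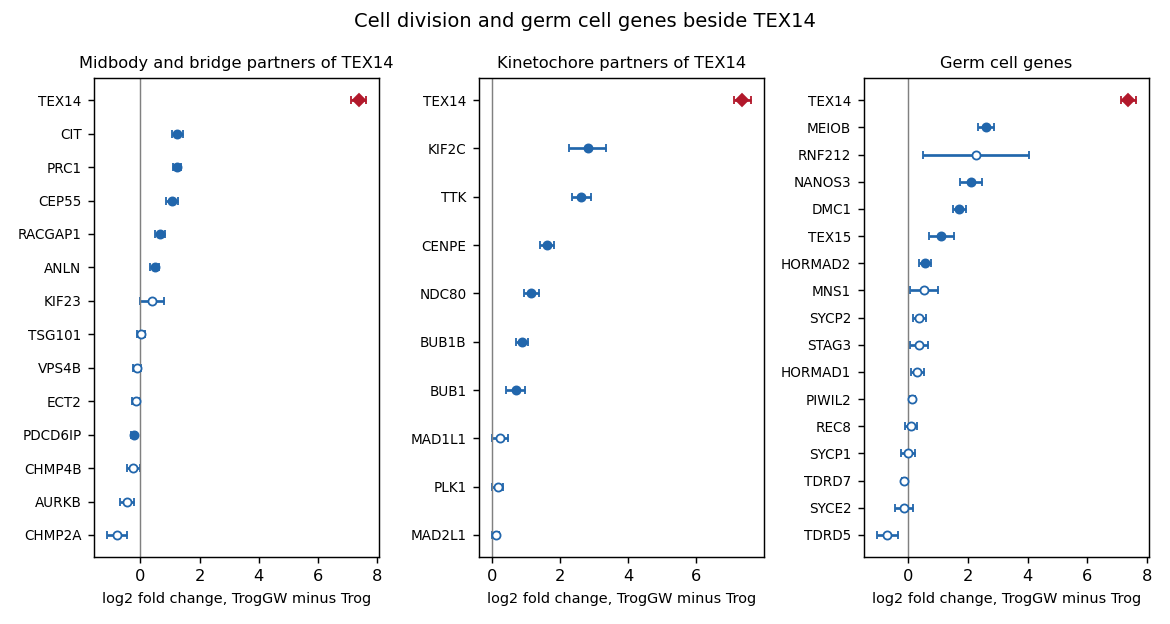
Log2 fold change of TrogGW minus Trog for the tested members of the midbody, kinetochore and germ cell lists, with TEX14 as a red diamond; filled dots passed an adjusted p of 0.05 and open dots did not. KIF2C at 2.81 and TTK at 2.62 of the kinetochore list, and MEIOB at 2.59 of the germ cell list, are far below TEX14 at 7.37.

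DNA methylation and chromatin silencing genes hold imprinted alleles, retrotransposon-derived genes and germ cell genes in check in mammals. Of 30 listed, 25 were tested, and 6 were higher and 2 lower in TrogGW than in Trog, with a median log2 fold change of 0.20. The share called was 32%, against 43.2% of all tested genes. With UK replicate 5 left out, 13 were higher and 6 lower, with 71.6% of all genes called. The H3K27 methyltransferase EZH2 had 19.7 ± 1.17 CPM in TrogGW and 12.5 ± 1.26 CPM in Trog (0.65 ± 0.0922, adjusted p = 3.56e-06). DNMT3A, a de novo DNA methyltransferase, had 26.3 ± 2.67 CPM in TrogGW and 15.8 ± 1.12 CPM in Trog (0.73 ± 0.14, adjusted p = 0.000155). MBD2, a reader of methylated DNA, had 135 ± 9.38 CPM in TrogGW and 103 ± 6.76 CPM in Trog (0.39 ± 0.0994, adjusted p = 0.00251).

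The maintenance methyltransferase DNMT1, named after its values were seen, also rose, with 66.3 ± 2.7 CPM in TrogGW and 45.4 ± 5.3 CPM in Trog (0.55 ± 0.142, adjusted p = 0.00298). EHMT1, an H3K9 methyltransferase, was lower at -0.25 ± 0.0965 (adjusted p = 0.0422), and on library totals alone it did not pass (adjusted p = 0.617). That call was also lost without any 1 of replicates 2 to 5 of either group (adjusted p up to 0.0931). FB cells had more DNMT1 (147 ± 9.92 CPM) and EZH2 (23.5 ± 1.48 CPM) than TrogGW cells, and less DNMT3A (17.5 ± 1.54 CPM) and MBD2 (75.3 ± 2.25 CPM). Against TGFb cells, where 69.4% of all tested genes passed, DNMT1 did not pass (0.29 ± 0.142, adjusted p = 0.0742). EZH2 (0.78 ± 0.0934), DNMT3A (0.47 ± 0.14) and MBD2 (0.86 ± 0.1) were higher in TrogGW there.

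The genes with the most similar levels to each member were ranked by Pearson r of log2 CPM over the 25 libraries, among 8224 tested genes averaging at least 10 CPM in their highest group. All 25 libraries of a gene share depth and scaling, and r here measures mainly TrogGW against the rest, so no p is given. For PEG10 the 5 were NPTX1 (0.984), a secreted neuronal pentraxin, SLU7 (0.952), a splicing factor, LRRC15 (0.944), a membrane protein of activated fibroblasts, ABTB2 (0.942) and TEX14 (0.941). For TEX14 the first 4 were ARC (0.987), ACER2 (0.977), a ceramidase, AQP3 (0.969), a water and glycerol channel, and GAL (0.967), the neuropeptide galanin. PEG10 was the 16th gene of TEX14's ranking.

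These genes matched the pattern to unequal degree. NPTX1 had 34.1 to 68.6 CPM in TrogGW and at most 0.857 CPM in UK, 0.308 in Trog, 0.249 in TGFb and 0.806 CPM in FB. SLU7, by contrast, had 130 ± 6.27 CPM in TrogGW, 77.6 ± 16.4 in UK, 74.4 ± 3.73 in Trog, 72.4 ± 2.1 in TGFb and 79.2 ± 5.3 CPM in FB. GAL had 25.4 to 83.7 CPM in TrogGW and at most 1.46 CPM in any other library. Without UK replicate 5, 2 of PEG10's 5 genes and 3 of TEX14's were still among the top 5, and over the 5 group means 2 of each were.

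**Figure D5:**
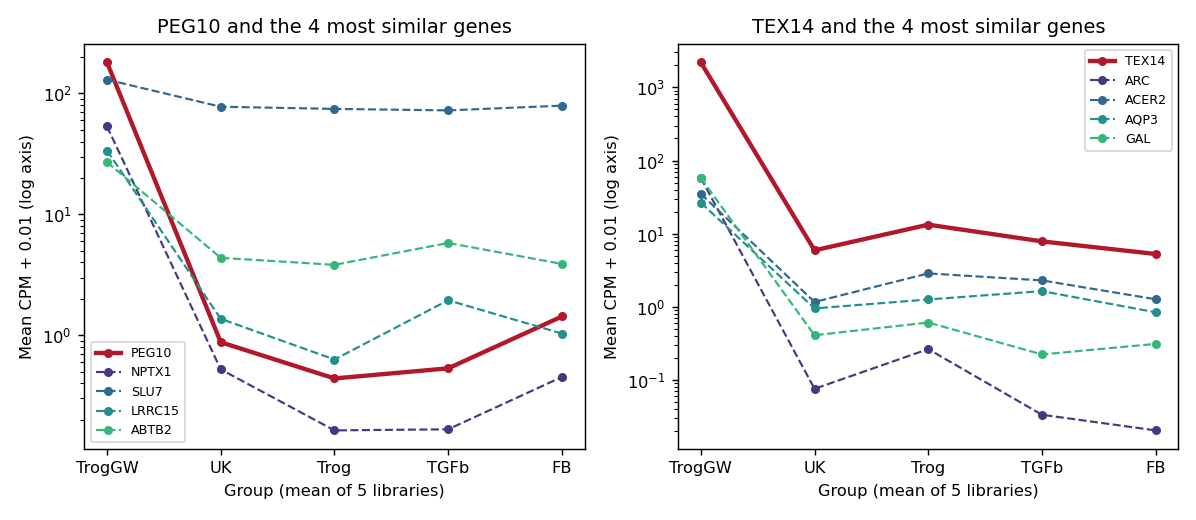
Mean CPM (with an offset of 0.01, log axis) of PEG10 (left) and TEX14 (right) and of the 4 genes most similar to each, in the 5 groups; the solid red line is PEG10 or TEX14 and the dashed lines are the others. All lines are highest in TrogGW, while SLU7 stays between 72.4 and 130 CPM throughout.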

How the data were processed

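Polyadenylated RNA of 25 samples was sequenced from stranded libraries, per the labels' protocols. The authors deposited 1 table of raw integer read counts per sample. Tools listed in the submitters' processing notes are Salmon 1.5.2, featureCounts, Subread 2.0.1, STAR 2.7.9a and fastp 0.23.1. Genome build, gene models and the strand setting of counting are not given in the sources used here. An edgeR 4.0.16 model (R 4.3.3) used TMM scaling, a filter (minimum count 10, minimum total 15) that left 10699 of 13949 genes, 1 mean per group over all 25 libraries and the quasi-likelihood F test, without a replicate block. Adjusted p-values are Benjamini-Hochberg values over all tested genes, and genes were called at an adjusted p under 0.05. CPM divide each count by its TMM-scaled library total in M. The design text calls the replicates independent without naming donors, and p-values then measure no more than the spread of these libraries, which may be technical. Intervals and floors cover counting error only.

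PEG10, TEX14 and the gene lists were chosen with earlier results of these data known. Named genes are, per list, up to 3 tested members with the lowest p in the direction with more calls and up to 2 in the other, the 3 nearest genes on each side in RefSeq, and the 5 most correlated genes; 2 genes that the rule names are not reported here. Alternatives were DESeq2 1.42.0, limma 3.58.1 (voom), other scalings and filters, a fit of only the groups compared, a replicate block and leaving out each library. Symbols matched RefSeq for 13794 genes. Figures were drawn with matplotlib 3.10.9.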

Additional observations from a re-analysis of the deposited data

Results flagged for a closer look

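Of 30 groups of 5 libraries checked, 3 held 1 library far from the other 4, all of them UK replicate 5, for genes beside PEG10 or TEX14. SGCE had 117 CPM in that library, against 70.7 CPM in the next UK library. RAD51C had 43.8 CPM there and 27.1 CPM in the next. CASD1 had 20.1 CPM there and 39.1 CPM in the nearest. The gap took 0.805, 0.827 and 0.762 of the group's range for SGCE, RAD51C and CASD1, above the limit of 0.71 used for 5 libraries. Chance alone flags about 5% of groups. Neither PEG10 nor TEX14 was flagged in any group. The check did not cover COL1A2 and MTMR4, which also had libraries far from the rest. COL1A2 had 825 CPM in TrogGW replicate 1 and 318 CPM in the next, and 33025 CPM in UK replicate 5 and 43203 CPM in the nearest. MTMR4 had 8.33 CPM in UK replicate 5 and 35.2 CPM in the nearest.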

How the results depend on the processing

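No called result reversed its direction under any alternative run, while the difference of PEG10 between Trog and TGFb, whose libraries overlap, changed sign on library totals alone. On library totals alone, which shifted the median gene by 0.168 (TrogGW minus Trog) and 0.851 (TrogGW minus TGFb), log2 fold changes were, for PEG10, 0.36 (Trog minus TGFb), 9.24 (TrogGW minus TGFb), -1.42 (Trog minus FB) and 7.47 (TrogGW minus FB). For TEX14 they were 0.19 (TGFb minus FB), 1.44 (Trog minus TGFb), 8.99 (TrogGW minus TGFb), -0.15 (UK minus TGFb), -1.60 (UK minus Trog), 1.64 (Trog minus FB) and 9.18 (TrogGW minus FB). There, 7502 genes were higher and 1332 lower in TrogGW than in TGFb, so 84.9% of calls were higher, against 54.9% with TMM. In TrogGW minus Trog the share was 69.9%, against 52.8% with TMM. The list counts that moved there by over 1.5 times were PEG10 region 2 higher, midbody 0 lower and silencing 12 higher and 0 lower, while other imprinted had 9 higher, kinetochore 7 and germ cell 6. Fitted on TrogGW and Trog alone, 3724 genes were higher and 3588 lower, with PEG10 region 3 higher, other imprinted 7 lower, midbody 4 lower, germ cell 1 lower, silencing 13 higher and 4 lower, and TEX14 neighbourhood 2 lower. Upper quartile scaling gave PEG10 region 2 higher, midbody 0 lower and silencing 0 lower. A minimum count of 30 gave PEG10 region 1 lower, midbody 0 lower, germ cell 3 higher and silencing 1 lower. DESeq2 1.42.0 gave gag-derived 1 lower, germ cell 1 lower and silencing 4 lower. With no filter, midbody had 0 lower and germ cell 1 lower. The cause of these moved values was not tested.

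Leaving out each library in turn gave 2211 to 3911 genes higher and 1956 to 3824 lower in TrogGW than in Trog, both highest without UK replicate 5. List counts ranged over 1 to 3 (PEG10 region higher), 3 to 8 (other imprinted lower), 0 to 1 (gag-derived lower), 0 to 4 (midbody lower), 3 to 6 and 0 to 1 (germ cell higher and lower), 6 to 13 and 0 to 6 (silencing higher and lower) and 1 to 2 (TEX14 neighbourhood lower). In TrogGW minus Trog, PEG10 stayed between 8.59 and 8.83 and TEX14 between 7.24 and 7.53.

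Same-numbered libraries did not deviate together: 6 of 50 pairs had a correlation over 0.1, and 3 of 25 libraries correlated best with their own number. With the replicate number as a block, PEG10 was at 8.68 and TEX14 at 7.34 in TrogGW minus Trog, 2376 genes were higher and 2136 lower, silencing had 1 lower, and EHMT1 did not pass (adjusted p = 0.0528). PEG10's 4 to 32 reads a library in Trog, TGFb and FB cells limit the precision of its differences there.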
